A study of Homo sapiens with 6 samples.

Results

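Solute carriers are membrane proteins that move ions, metals, vitamins, sugars and metabolites across the plasma membrane or an organelle membrane. Described here are the expressed solute carriers of KYSE70 cells outside 9 families, namely SLC1, SLC2, SLC3, SLC7, SLC11, SLC25, SLC38, SLC40 and SLC43. They were chosen by name and by level: all table rows named with the solute carrier pattern (SLC, a number, letters, a number) whose mean RPKM over the 6 libraries was at least 1. Of 48644 rows, 359 had such a name, 261 of these lay outside the 9 families, and 101 of the 261 reached the mean. KYSE70 is an established human esophageal squamous carcinoma line. All cells carried a stably integrated, doxycycline-inducible pLKO-Tet-On hairpin vector, directed against SOX2 in the shSOX2 line and against TP63 in the shTP63 line. Each line had 1 library from cells without doxycycline (day 0) and 2 libraries from cells given doxycycline at 50 ng/ml for 4 days (day 4), and the aim stated for the series is to find the genes that respond when either factor is suppressed. The libraries analysed here include neither a non-targeting hairpin nor doxycycline on cells without a hairpin, so an effect of doxycycline cannot be told apart from one of the hairpins. The labels number the libraries, and the numbers could stand for replicates or for different hairpins; both day 0 libraries carry number 2. Day 4 values are given below for number 2 first and number 1 next. Values of single libraries are log2(RPKM + 1), where RPKM is a read count scaled to transcript length and library size, so levels can be compared between genes. Read depth is unknown, since the values hold no counts.

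Solute carriers differ in their cargo, and members of the same family can differ too. Some take substrates up, such as the ZIP carriers of family SLC39 for zinc, the reduced folate carrier SLC19A1 and the nucleoside carriers of family SLC29. Others move them out of the cytosol into vesicles or out of the cell, such as the zinc carriers of family SLC30. Some SLC35 carriers supply the Golgi with nucleotide sugars for glycosylation, while others of that family were grouped here under unsettled or other substrates. In squamous tumour cells folate and nucleoside uptake feeds nucleotide synthesis, and bicarbonate, proton and lactate carriers keep the cytosol from acidifying.

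The stretches before the start sites of 4 members are shown, because these members stand out in the results: SLC19A1, SLC46A1 and SLC29A1 were the members called by the test, and SLC48A1 was the only member at least 2-fold higher after both inductions. Each stretch is the 250 bases before the RefSeq start site, in GRCh38.p14 and in the direction of the gene, whereas the deposited values were made on hg19. Capitals mark, on either strand, the E-box CACGTG, the GC box GGGCGG and the SOX-type motif ACAANG. They lie at chr21:45563026-45563275 on the minus strand, chr17:28406213-28406462 on the minus strand, chr6:44219365-44219614 on the plus strand and chr12:47772988-47773237 on the plus strand.
SLC19A1: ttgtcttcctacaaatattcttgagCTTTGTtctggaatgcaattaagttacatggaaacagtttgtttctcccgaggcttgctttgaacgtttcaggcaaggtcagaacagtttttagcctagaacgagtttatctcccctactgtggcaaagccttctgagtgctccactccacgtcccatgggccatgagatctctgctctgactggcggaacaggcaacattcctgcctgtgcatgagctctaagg
SLC46A1: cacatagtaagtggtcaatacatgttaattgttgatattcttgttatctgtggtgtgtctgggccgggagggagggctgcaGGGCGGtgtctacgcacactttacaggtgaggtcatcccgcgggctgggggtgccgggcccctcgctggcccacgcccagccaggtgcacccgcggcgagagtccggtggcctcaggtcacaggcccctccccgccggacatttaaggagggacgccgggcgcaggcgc
SLC29A1: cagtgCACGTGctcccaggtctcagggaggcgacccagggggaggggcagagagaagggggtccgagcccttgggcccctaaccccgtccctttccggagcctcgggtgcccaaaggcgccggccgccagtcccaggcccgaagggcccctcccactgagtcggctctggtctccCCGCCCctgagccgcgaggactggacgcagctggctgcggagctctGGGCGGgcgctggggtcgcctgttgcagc
SLC48A1: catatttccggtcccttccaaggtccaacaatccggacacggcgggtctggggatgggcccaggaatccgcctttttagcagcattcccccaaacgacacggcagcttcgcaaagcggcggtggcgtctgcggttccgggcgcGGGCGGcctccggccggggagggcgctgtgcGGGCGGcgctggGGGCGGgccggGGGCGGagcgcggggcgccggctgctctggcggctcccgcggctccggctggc
The stretches of SLC48A1 and SLC29A1 are rich in G and C, at 74.0% and 73.2%, and hold 4 and 2 GC boxes, while that of SLC46A1 holds 1 at 64.4% and that of SLC19A1 none at 47.2%. The SLC29A1 stretch has an E-box, and the SLC19A1 stretch has a SOX-type motif. Of the 101 members, 78 had such a stretch, 2 of them under a newer symbol. Among the 78, 69.2% held a GC box against 42.3% of 27305 RefSeq stretches of that length, 10.3% held an E-box against 6.49%, and 25.6% held the SOX-type motif against 31.1%. The AP-1 motif TGANTCA was in 3.85% against 6.6%, and the antioxidant response motif TGANNNNGC in 37.2% against 35.4%. The 27305 include genes that KYSE70 cells do not express, so these shares are a description only. Members without an entry included SLC31A2, SLC37A3, SLC39A4, SLC26A11, SLC52A3, SLC35F3, SLC45A4, SLC37A2, SLC35E2, SLC20A2, SLC23A2, SLC6A6, SLC4A11, SLC35C2, SLC16A13, SLC47A1, SLC29A2, SLC16A1, SLC52A2 and SLC39A14.

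The hairpin targets were measured first. In the shSOX2 line SOX2 read 6.25 at day 0, then 5.65 and 4.67 at day 4, and in the shTP63 line 5.69, then 5.55 and 5.41. In the shTP63 line TP63 read 3.99 at day 0, then 2.26 and 2.11 at day 4, and in the shSOX2 line 3.61, then 3.91 and 3.93. Both targets were below day 0 after induction of their own hairpin, and neither change passed the test (log2 change of SOX2 -1.10 ± 0.45, adjusted p = 0.469, and of TP63 -1.81 ± 0.32, adjusted p = 0.131, both limma over 10536 genes). All 9 squamous markers chosen, among them KRT5 at 8.39 to 11.01, had a mean RPKM of at least 1, although KRT14 was low at 0.66 to 2.70. No leukocyte, endothelial or fibroblast marker reached that mean, and their summed RPKM per set was at most 0.821 in any library. The summed RPKM of the 3 simple epithelium markers was 353 before and 161 and 197 after the SOX2 hairpin, and 288 before and 213 and 249 after the TP63 hairpin. KRT8 and KRT18 were lower after both inductions, while EPCAM was higher, from 5.4 to 6.1 and 6.5 in the shSOX2 line and from 4.5 to 4.6 and 5.3 in the shTP63 line. The summed RPKM of the 9 squamous markers was 1030 before and 486 and 942 after the SOX2 hairpin, and 1620 before and 2220 and 983 after the TP63 hairpin. KRT5, at a mean of 1050 RPKM, made up most of that sum. The squamous markers did not move together: KRT13 was higher and PKP1 lower in all 4 induced libraries than at day 0 of their line. The part of these shifts in the members' values was not tested. The uninduced shTP63 library listed 16167 genes above 0 against 21530 to 23509 in the others, and no member was at 0 in any library.

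The zinc carrier SLC39A7 had the highest mean level of the 101 members, at 34.8 RPKM. The median over members was 3.67 RPKM, against 4.32 over the 10536 genes with a mean of at least 1. After SLC39A7 came the creatine carrier SLC6A8 at 29.6 RPKM, the metal carrier SLC39A14 at 29.1, the PAPS carrier SLC35B2 at 23.0, the zinc carrier SLC39A1 at 19.7 and the riboflavin carrier SLC52A2 at 19.4. Near the limit, the thiamine carrier SLC19A2 at 1.05 and the zinc carrier SLC30A4 at 1.10 were inside it, and SLC16A10 at 0.948, SLC35D1 at 0.882 and the lactate exporter gene SLC16A3 at 0.852 were outside it. A mean of at least 1 was reached in every group by 82 members, in 3 groups by 10, in 2 groups by 7 and in 1 group by 2, so 19 members were kept by the groups in which they were higher. Among these are SLC19A2, SLC27A2, SLC30A4, SLC31A2, SLC35F3, SLC37A1, SLC39A4, SLC45A3 and SLC52A3. Their changes given below are in part tied to that choice.

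**Figure D1:**
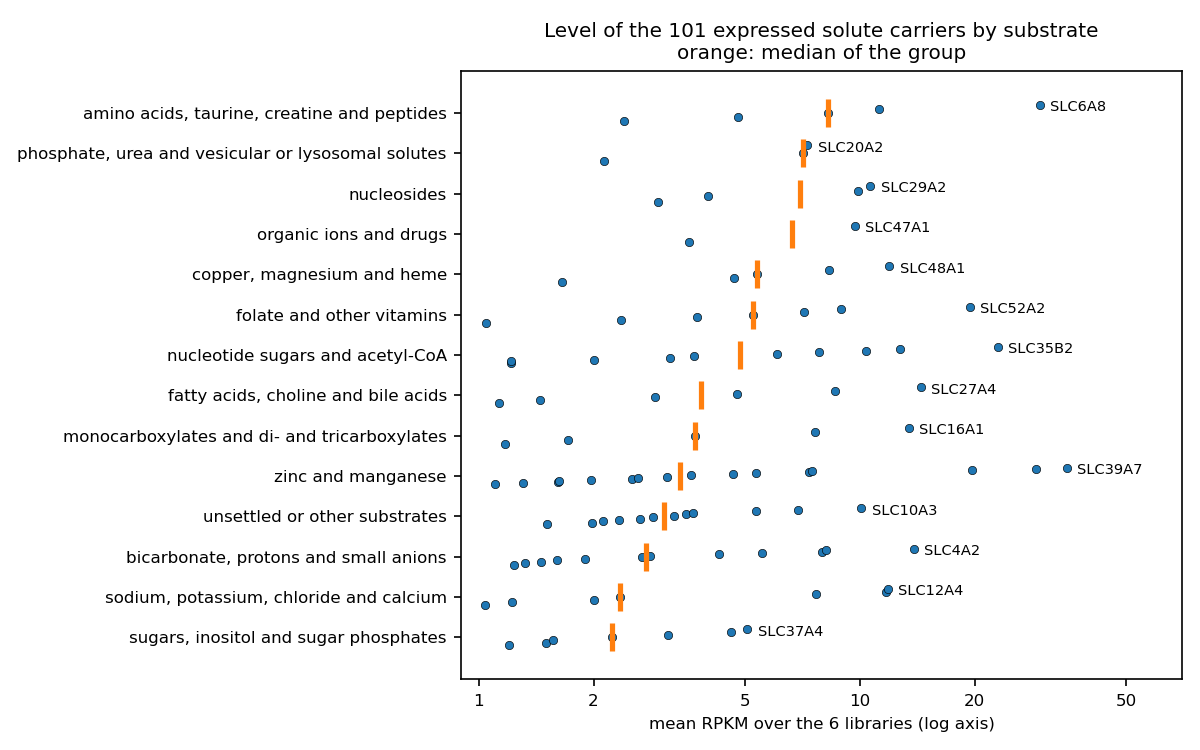
Mean RPKM over the 6 libraries (x axis, log scale) of the 101 members by substrate (y axis); each point is 1 gene and the orange bar is the median of its group. SLC39A7 at 34.8 RPKM and SLC6A8 at 29.6 lie highest.

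More members stood higher than lower after induction of the SOX2 hairpin. In both induced shSOX2 libraries 64 of the 101 members were above day 0 and 10 were below it, while over all 10536 genes tested 33.3% were above and 40.2% below. The median log2 change of members was 0.32, against -0.05 over all genes tested. By library the members' median was 0.39 for number 2 and 0.27 for number 1. Against the uninduced library of the other line, a control that adds the day 0 gap between the lines, it was 0.49. At an unadjusted p under 0.05, 16 members were higher and 0 lower (limma), where the background was 6.12% and 4.26% of all genes. No member passed after adjustment, as 0.0% of all genes did, and the smallest adjusted p among members was 0.326. Day 0 is a single library, and the labels do not say that libraries came from separate cultures, so a p-value here reflects the spread among these libraries alone, and that spread may be technical.

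After induction of the TP63 hairpin the members were split. In both induced shTP63 libraries 34 members were above day 0 and 43 below it, close to the 37.9% and 38.5% of all genes tested. Their median log2 change was -0.08 against 0.00 over all genes, and it was 0.02 when library number entered the fit as a block. At an unadjusted p under 0.05, 5 members were higher and 10 lower (limma, background 7.33% and 7.24%). No member passed after adjustment, where 0.019% of all genes did. Measured against the uninduced shSOX2 library instead, 10 members in place of 3 were at least 2-fold lower. That control adds the day 0 gap between the lines to each change, with a median of -0.12 over members. The count of 10 was not set against all genes.

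Between the induced lines the difference was wider. In all 4 pairings of induced libraries 65 members were lower with the TP63 hairpin than with the SOX2 hairpin and 4 were higher, against 26.6% and 30.5% of all genes tested. The median log2 difference of members, shTP63 minus shSOX2, was -0.58, against 0.05 over all genes. Limma called 3 members, all lower in the shTP63 line, where 0.759% of all genes were called. At an unadjusted p under 0.05, 44 were lower and 1 higher (background 12.5% and 10.5%). Leaving out induced shTP63 number 1 gave 6 called members (5.94%, against 3.08% of all genes). Leaving out either induced shSOX2 library gave 0 (0.0% of all genes), and leaving out induced shTP63 number 2 also gave 0 (0.683% of all genes). Part of the gap was there before doxycycline: of the 65 members, 44 were already lower in the uninduced shTP63 library, and the median gap of all 101 at day 0 was -0.12. Among all tested genes lower in this way 72.5% were lower at day 0, against 67.7% of the 65 members. The difference between the responses of the lines, which removes the day 0 gap, had a median of -0.36 over members and 0.03 over all genes. That difference was called for 0 members (limma, 0.0% of all genes), with 6 lower and 0 higher at an unadjusted p under 0.05 (background 2.47% and 2.08%). In bulk RNA, fewer cells that express a carrier and less of its RNA per cell cannot be told apart. The expressed members of the 9 families left out, 50 genes, had a median of 0.04 between the induced lines and -0.05 and 0.04 after the SOX2 and the TP63 hairpin. Of these 50, 3 were called between the induced lines, and at an unadjusted p under 0.05, 11 were lower and 0 higher there.

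**Figure D2:**
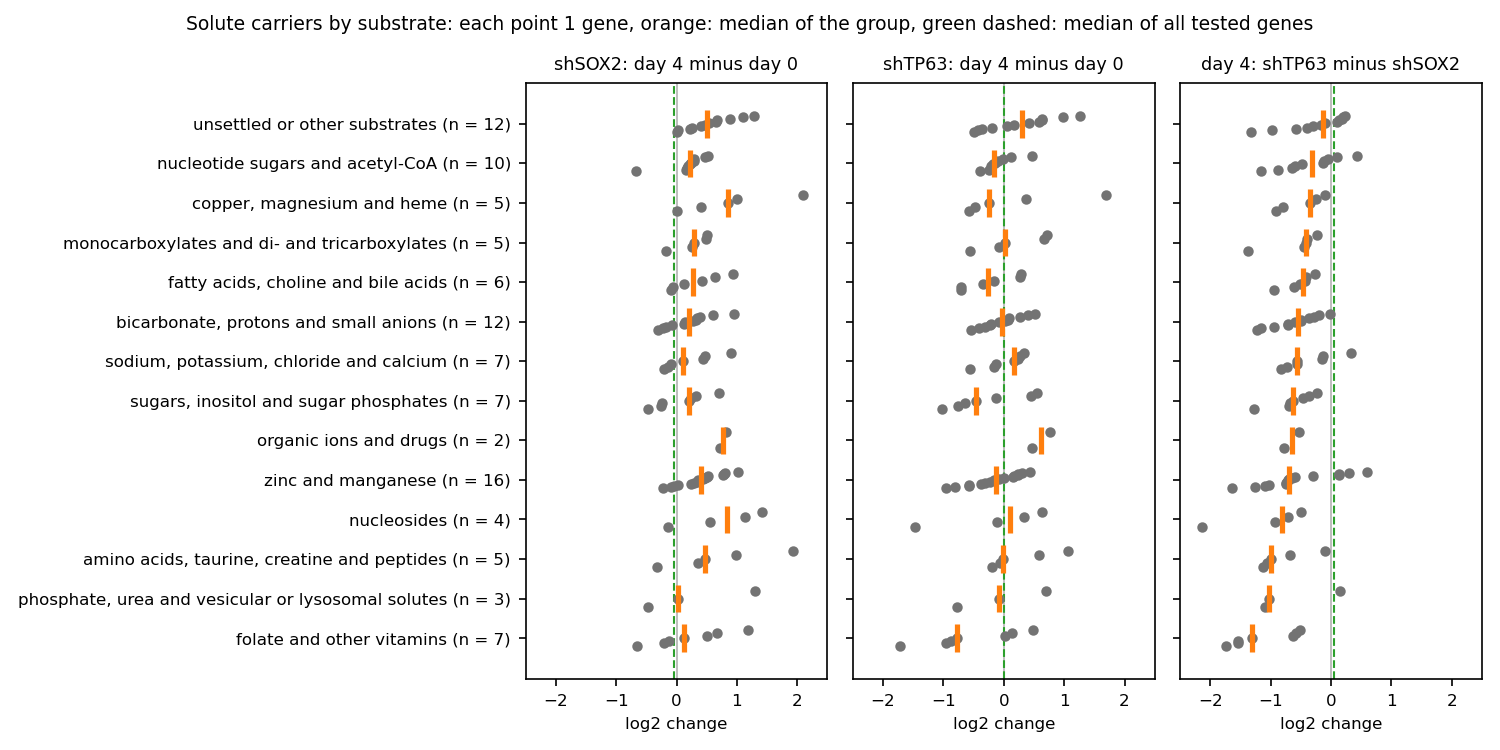
Log2 change of each member (x axis) by substrate group (y axis) after the SOX2 hairpin, after the TP63 hairpin and between the induced lines; each point is 1 gene, orange bars are group medians and the green dashed line is the median of all tested genes. In the right panel the medians of all groups lie below 0, from -1.32 for folate and other vitamins to -0.13 for unsettled substrates.

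Folate and vitamin carriers held 2 of the 3 calls. All 7 members of the group had a lower mean in the induced shTP63 libraries, 6 of them in every pairing, and 3 were at least 2-fold lower. Of all tested genes 26.6% were lower in every pairing and 1.59% at least 2-fold lower, and of all members 64.4% and 9.9%. The group's median was -1.32, against 0.05 over all genes. SLC19A1, the reduced folate carrier that brings folate and antifolates into cells, stood at 3.52 before and at 2.76 and 2.96 after doxycycline in the shSOX2 line. The shTP63 line had it at 2.83 before doxycycline and at 0.92 and 1.31 after it. Its induced values in the shTP63 line were the lowest of the 6 and did not overlap with any other library. The log2 difference between the induced lines was -1.74 ± 0.27 (limma adjusted p = 0.0467). At day 0 the gap between the lines was -0.69, and the difference of the responses was -1.06 ± 0.47 (limma unadjusted p = 0.055, adjusted p = 0.995). Within the shTP63 line the log2 change was -1.72 ± 0.33, which did not pass (adjusted p = 0.131), and in the shSOX2 line it was -0.66 ± 0.33. With both uninduced libraries as the control the change in the shTP63 line was -2.06 and passed (adjusted p = 0.018, range over 13 alternatives 0.018 to 0.444). That control includes the uninduced library of the other line, so the change of -2.06 holds part of the day 0 gap between the lines. It gave calls for 2.76% of all genes and 1.98% of members.

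SLC46A1, the proton-coupled folate carrier, had values of 2.62, then 2.72 and 2.77, in the shSOX2 line. The shTP63 line had 2.08, then 1.20 and 1.21. Both induced shTP63 libraries were below every other library, and the shSOX2 libraries lay within a narrow range. The log2 difference between the induced lines was -1.54 ± 0.24 (limma adjusted p = 0.0467), and the change within the shTP63 line was -0.87 ± 0.29 (adjusted p = 0.248). The folate receptor gene FOLR1, which takes folate up by endocytosis, moved the opposite way in the shTP63 line and was above day 0 in both lines. It was at 0.35, then 2.53 and 1.46, in the shSOX2 line and at 0.97, then 4.05 and 3.93, in the shTP63 line. Its log2 change was 1.65 ± 0.45 and 3.02 ± 0.45, and neither passed (limma adjusted p = 0.368 and 0.113).

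Among the other vitamin carriers, SLC5A6, which carries biotin and pantothenate with sodium, was at 3.90, 3.75 and 3.79 in the shSOX2 line. It was at 2.99, 1.96 and 2.48 in the shTP63 line, and its difference between the induced lines of -1.55 ± 0.29 did not pass (limma adjusted p = 0.0679). The riboflavin carrier SLC52A2 was at 4.89, 4.58 and 4.80, then at 4.33, 3.13 and 3.62, a difference of -1.32 ± 0.30 (adjusted p = 0.0932). For both genes the uninduced shTP63 library was already below the uninduced shSOX2 library, with log2 gaps of -0.91 and -0.56. SLC52A3, another riboflavin carrier, was at 0.97 before and at 1.60 and 2.72 after the SOX2 hairpin. The ascorbate carrier SLC23A2 and the thiamine carrier SLC19A2 had differences between the induced lines of -0.63 and -0.57. SLC19A2 reached a mean RPKM of 1 only in the induced shSOX2 libraries, so its difference is tied to how members were chosen.

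Nucleoside carriers held the other call. SLC29A1, the equilibrative nucleoside transporter of the plasma membrane, was at 4.10 before and at 3.83 and 4.09 after doxycycline in the shSOX2 line. The shTP63 line had 3.29, then 1.50 and 2.14. Both induced shTP63 libraries were again below all others, while the shSOX2 libraries lay close together. Between the induced lines the log2 difference was -2.14 ± 0.31 (limma adjusted p = 0.0448), the largest among members. Its change within the shTP63 line was -1.47 ± 0.39 (adjusted p = 0.177), and the day 0 gap between lines was -0.82. The difference of the responses, -1.33 ± 0.54, had an unadjusted p of 0.0427 and an adjusted p of 0.995. With both uninduced libraries as the control the change in the shTP63 line was -1.88 and passed (adjusted p = 0.0303, range over 13 alternatives 0.0303 to 0.618), under the control that called 2.76% of all genes. Here too the change holds part of the day 0 gap between the lines.

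Between the induced lines 3 of the 4 nucleoside carriers were lower in every pairing and had an unadjusted p under 0.05 (limma). Of all tested genes 26.6% were lower in every pairing, and 12.5% were lower at that p. Besides that of SLC29A1, the log2 differences were -0.71 ± 0.24 for SLC29A3 and -0.93 ± 0.39 for SLC29A4. SLC29A3, a nucleoside carrier of lysosomes, stood at 1.37 and then at 2.60 and 2.41 in the shSOX2 line, a log2 change of 1.14 ± 0.30 (limma adjusted p = 0.357). It was at 1.47, then 1.74 and 1.86, in the shTP63 line. SLC29A4, which carries monoamines as well as adenosine, was at 1.43, then 3.42 and 2.27, in the shSOX2 line and at 2.03, then 1.75 and 2.07, in the shTP63 line. SLC29A2 was at 3.36, 4.16 and 3.65 and at 2.77, 2.94 and 3.87. For SLC29A2 the induced libraries of the lines overlapped, and its difference of -0.50 ± 0.38 did not pass (limma adjusted p = 0.44).

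The calls of SLC19A1, SLC46A1 and SLC29A1 between the induced lines rest on a thin margin. None of the 3 passed without either induced shSOX2 library (limma adjusted p = 0.235 for each without number 2 and 0.182 for each without number 1). None passed without induced shTP63 number 2, with a pseudocount of 5, without a filter on low values or with library number as a block. Their log2 differences stayed negative in every alternative, from -2.46 to -1.37 for SLC29A1, from -1.93 to -0.86 for SLC19A1 and from -1.58 to -0.76 for SLC46A1. Over 10, 10 and 9 alternatives the adjusted p ranged from 0.0118 to 0.501, from 0.0223 to 0.496 and from 0.0386 to 0.257.

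A list of folate and nucleotide genes holds the enzymes that use these substrates and the receptor FOLR1. Of its 21 genes 19 were tested, and 11 were lower and 4 higher in both induced shSOX2 libraries (40.2% and 33.3% of all tested genes). In the shTP63 line 13 of the list were lower and 2 higher in both (38.5% and 37.9% of all tested genes). Their median log2 changes were -0.33 and -0.53, and limma called 0 in either line. At an unadjusted p under 0.05, 1 was higher and 4 lower in the shSOX2 line (background 6.12% and 4.26%), and 2 were higher and 3 lower in the shTP63 line (background 7.33% and 7.24%). UPP1, which splits uridine, was at 4.02, 2.62 and 2.20 in the shSOX2 line and at 4.53, 2.34 and 1.91 in the shTP63 line. Between the induced lines this list had a median of 0.06.

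**Figure D3:**
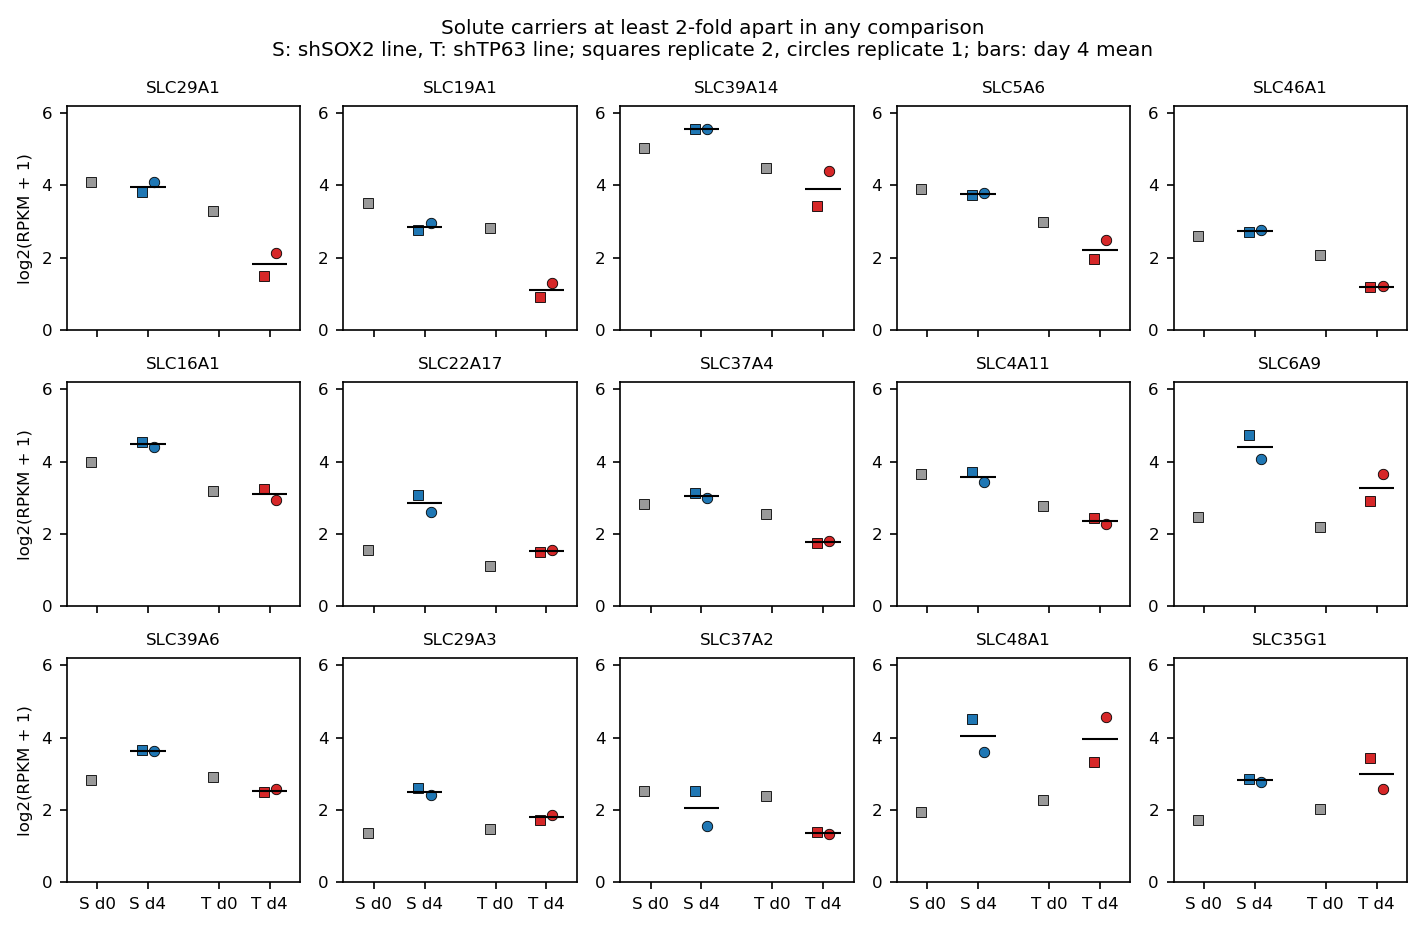
Values in each library (y axis, log2(RPKM + 1)) of the 15 members at least 2-fold apart in any comparison; grey marks day 0, blue and red mark day 4 of the shSOX2 and the shTP63 line, and bars are day 4 means. SLC29A1, SLC19A1 and SLC46A1 have their lowest values in both red points, and SLC48A1 and SLC6A9 are above day 0 in both lines.

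Heme, copper and magnesium carriers included the member with the largest change after the SOX2 hairpin. SLC48A1, which moves heme from endosomes and lysosomes to the cytosol, stood at 1.96 and then at 4.51 and 3.60 in the shSOX2 line. The shTP63 line had 2.27, then 3.33 and 4.58. All 4 induced libraries were above both uninduced ones, and by at least 2-fold against the own line's day 0. The log2 changes were 2.10 ± 0.58 and 1.69 ± 0.58, and neither passed (limma adjusted p = 0.368 and 0.257). The libraries within an induced line lay far apart, and the induced lines overlapped.

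The copper carrier SLC31A2 lay on opposite sides of day 0 in the lines. It was at 0.86, then 2.07 and 1.64, in the shSOX2 line and at 1.52, then 0.69 and 1.20, in the shTP63 line. It reached a mean RPKM of 1 only in the induced shSOX2 and the uninduced shTP63 group, so its opposite changes are tied to how members were chosen. Its difference of responses, -1.58 ± 0.49, had an unadjusted p of 0.0131 and did not pass (limma adjusted p = 0.995). Neither the copper importer SLC31A1 nor the magnesium carrier SLC41A1 had an unadjusted p under 0.05 in either line, with changes of 0.01 and -0.24 and of 0.41 and -0.47. SLC41A3 had changes of 0.86 and 0.37.

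Carriers of amino acids, taurine, creatine and peptides had a median change of 0.47 in the shSOX2 line, where 4 of 5 were higher in both libraries (33.3% of all tested genes). SLC6A9, the glycine carrier GLYT1, was at 2.48 and then at 4.72 and 4.08 there. The shTP63 line had 2.21, then 2.90 and 3.65. It was above its own day 0 in all 4 induced libraries, at least 2-fold in both shSOX2 libraries, with log2 changes of 1.93 ± 0.45 and 1.07 ± 0.45 (limma adjusted p = 0.326 and 0.332). That adjusted p of 0.326 was the smallest among members after the SOX2 hairpin. The taurine carrier SLC6A6 was at 2.82, 3.20 and 4.40 and at 2.15, 2.49 and 2.99. The creatine carrier SLC6A8 was at 4.82, 5.44 and 5.14 and at 4.81, 4.47 and 4.74, so that its induced lines did not overlap while its day 0 libraries nearly coincided.

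The zinc and manganese carriers were the largest group, with 16 members. After the SOX2 hairpin 12 were higher and 1 lower in both libraries (33.3% and 40.2% of all tested genes). After the TP63 hairpin 4 were higher and 7 lower in both (37.9% and 38.5% of all tested genes). Between the induced lines 12 were lower and 2 higher in every pairing, with a median of -0.70. Of all tested genes 26.6% were lower and 30.5% higher in every pairing, and of all members 64.4% and 3.96%. SLC39A13, a zinc carrier of the secretory pathway, was at 2.19, 3.37 and 3.04 in the shSOX2 line, a log2 change of 1.01 ± 0.32 (limma adjusted p = 0.419). SLC39A3 was at 2.63, then 1.91 and 1.73, in the shTP63 line, and SLC39A4, the intestinal zinc importer mutated in acrodermatitis enteropathica, at 1.94, then 0.96 and 1.03. Their log2 changes were -0.81 ± 0.33 and -0.95 ± 0.29 and did not pass (adjusted p = 0.316 and 0.224). For SLC39A4 the uninduced shSOX2 library, at 1.53, lay closer to the induced values.

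The widest zinc carrier difference between the induced lines was that of SLC39A14, which also carries iron and manganese. It was at 5.02, 5.55 and 5.55 in the shSOX2 line and at 4.49, 3.42 and 4.40 in the shTP63 line, a difference of -1.64 ± 0.37 (limma adjusted p = 0.0922). SLC39A6 was at 2.83, 3.65 and 3.62 and at 2.91, 2.50 and 2.57, a difference of -1.10 ± 0.26 (adjusted p = 0.0932). SLC39A7, the abundant zinc carrier of the endoplasmic reticulum, was at 5.18, 5.43 and 5.65 and at 4.67, 4.85 and 4.96. Its changes within the lines were 0.36 and 0.23, and the shTP63 line was lower before induction as well. The zinc exporters of family SLC30 included the 2 zinc members that were higher in the induced shTP63 line. SLC30A9 was at 1.93, 1.94 and 1.75 and at 2.53, 2.46 and 2.42, and SLC30A4 at 0.94, 0.89 and 1.04 and at 0.97, 1.32 and 1.22. SLC30A4 reached a mean RPKM of 1 only in the induced shTP63 libraries, so its higher value there is tied to how members were chosen. The gap of SLC30A9 was the same before and after induction, with a difference of responses of 0.00 ± 0.42. Of 8 zinc response genes listed only 3 were tested, and 0 were called. The metallothionein gene MT2A had log2 changes of 0.81 ± 0.40 and 0.37 ± 0.40.

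Bicarbonate, proton and small anion carriers had medians of 0.20 and -0.03 after the SOX2 and the TP63 hairpin and -0.54 between the induced lines. SLC4A2, the most abundant of the 12, exchanges chloride for bicarbonate and was at 4.25, 4.45 and 3.42 and at 3.98, 3.45 and 3.44. Its induced lines overlapped. SLC4A11, a relative of the bicarbonate carriers, was at 3.66, 3.72 and 3.45 and at 2.76, 2.44 and 2.27, a difference of -1.23 ± 0.27 (limma adjusted p = 0.0862). Of that difference, -0.90 was present at day 0. SLC9A7, an exchanger of the Golgi, was at 1.92, 2.64 and 3.10 in the shSOX2 line and between 2.01 and 2.29 in the shTP63 line. SLC26A11 had changes of 0.34 and 0.51, higher in all 4 induced libraries.

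Of the 5 monocarboxylate carriers, SLC16A1 (MCT1), which carries lactate and pyruvate, was the most abundant. It was at 3.99, 4.55 and 4.40 in the shSOX2 line and at 3.18, 3.25 and 2.94 in the shTP63 line. Every shTP63 library was below every shSOX2 library, induced or not, and the difference between the induced lines of -1.38 ± 0.28 did not pass (limma adjusted p = 0.0791). BSG, the chaperone that brings MCT1 to the membrane, was at 6.87, 8.16 and 7.40 and at 6.94, 6.70 and 6.77. LDHA, which makes lactate, was lower after both inductions, at a log2 change of -0.71 ± 0.38 in each line (adjusted p = 0.544 and 0.426). Of the 11 listed partners of lactate and pH carriers, 4 were tested and 0 called. SLC16A13, SLC16A14 and SLC16A8 differed between the libraries of an induced line by over 1 in at least 1 line.

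The 7 sodium, potassium, chloride and calcium carriers had medians of 0.12 and 0.17 after the SOX2 and the TP63 hairpin and of -0.56 between the induced lines. The potassium and chloride cotransporter SLC12A4 was at 3.20, 4.37 and 3.83 and at 3.21, 3.26 and 3.83, a change of 0.90 ± 0.41 in the shSOX2 line (limma adjusted p = 0.496). SLC12A2, the sodium, potassium and chloride cotransporter, was at 2.15, 2.03 and 1.84 and at 1.76, 1.19 and 1.21. It was lower in both libraries of either induced line, with changes of -0.21 and -0.56. Of 14 listed sodium pump and WNK kinase genes, 8 were tested and 0 called.

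Among sugar and sugar phosphate carriers, SLC37A4, the glucose 6-phosphate carrier of the endoplasmic reticulum, was at 2.83, 3.12 and 2.98 in the shSOX2 line. It was at 2.54, then 1.76 and 1.80, in the shTP63 line, and the difference between the induced lines was -1.27 ± 0.25 (limma adjusted p = 0.076). SLC37A2 was at 2.39, then 1.39 and 1.34, in the shTP63 line, a change of -1.03 ± 0.42 (adjusted p = 0.317). In the shSOX2 line its induced libraries were at 2.52 and 1.57 against 2.52 before induction, so number 1 lay near the induced shTP63 values. SLC37A1 was higher in all 4 induced libraries, with changes of 0.70 and 0.56, and SLC45A3 lower in all 4, with -0.25 and -0.64.

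The group of nucleotide sugar and acetyl-CoA carriers had medians of 0.23 and -0.16 after the SOX2 and the TP63 hairpin. The group is mixed and includes SLC33A1 for acetyl-CoA and the PAPS carrier SLC35B2. None of its 10 genes had an unadjusted p under 0.05 in either line (limma). SLC35B2, which supplies the sulphate donor PAPS, was at 4.54, 5.19 and 4.93 and at 4.06, 4.51 and 3.84. SLC35A4 was the group's member with a lower value in all 4 induced libraries, with changes of -0.67 ± 0.38 and -0.39 ± 0.38 (limma adjusted p = 0.559 and 0.679). SLC33A1 was higher in all 4, by 0.29 and 0.47. The 21 tested makers and users of nucleotide sugars had medians of 0.38 and 0.06 with 0 called. Among them EXT1, a heparan sulphate polymerase, was at 2.10, 3.66 and 3.70 in the shSOX2 line.

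Fatty acid and choline carriers had medians of 0.27 and -0.26 after the SOX2 and the TP63 hairpin. SLC27A4, the most abundant, was at 4.11, 4.46 and 3.65 and at 3.99, 3.55 and 3.71. The acyl-CoA synthetases SLC27A5 and SLC27A2 were lower in both induced shTP63 libraries, by -0.70 ± 0.30 and -0.71 ± 0.29 (limma adjusted p = 0.343 and 0.327). The choline carrier SLC44A1 was at 1.36, 1.99 and 2.60 in the shSOX2 line and at 1.94, 1.63 and 1.94 in the shTP63 line.

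The sodium and phosphate cotransporters, which are retrovirus receptors as well, differed from each other. SLC20A2 was at 2.44, 3.38 and 4.08 and at 1.94, 3.03 and 2.26, higher in all 4 induced libraries, with changes of 1.29 ± 0.45 and 0.71 ± 0.45 (limma adjusted p = 0.431 and 0.509). SLC20A1 was at 3.67, 2.96 and 3.44 and at 2.94, 1.71 and 2.63, lower in all 4, with -0.47 ± 0.45 and -0.77 ± 0.45. The lysosomal sialic acid carrier SLC17A5 was at 2.45 and 0.77 in the induced shTP63 libraries, on either side of day 0 at 1.69. Of 18 lysosomal acidification genes listed, 16 were tested and 0 called, with 7 higher and 7 lower in both shSOX2 libraries and 9 higher and 1 lower in both shTP63 libraries (background 33.3% and 40.2%, and 37.9% and 38.5%). ATP6V1A, a subunit of the proton pump, was at 3.14, 4.41 and 4.58 in the shTP63 line.

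Both organic ion carriers were higher in all 4 induced libraries than in the day 0 library of their line, as were 19.4% of all tested genes. SLC47A1, which extrudes organic cations with protons, was at 3.13, 3.84 and 4.05 and at 2.70, 3.22 and 3.13. The carnitine carrier SLC22A5 was at 1.91, 2.74 and 2.51 and at 1.33, 1.89 and 2.31. The log2 changes were 0.81 and 0.47 for SLC47A1 and 0.71 and 0.77 for SLC22A5, and none passed (limma adjusted p = 0.343 to 0.543).

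The 12 members with unsettled or other substrates had medians of 0.50 in the shSOX2 line and 0.30 in the shTP63 line. In both induced shSOX2 libraries 10 of them were higher (33.3% of all tested genes). SLC22A17, a receptor for lipocalin 2, was at 1.57, then 3.08 and 2.61, in the shSOX2 line and at 1.11, 1.51 and 1.55 in the shTP63 line. Its change in the shSOX2 line was 1.28 ± 0.32 (limma adjusted p = 0.349), and its difference between the induced lines -1.32 ± 0.27 (adjusted p = 0.0791). SLC35G1 was at 1.72, 2.84 and 2.79 and at 2.02, 3.42 and 2.57, higher in both lines by 1.10 and 0.98. SLC35F3 had the largest change of the group after the TP63 hairpin, from 0.79 to 2.53 and 1.58 (1.26 ± 0.41, adjusted p = 0.24). SLC35F2 was at 1.82, 2.59 and 2.81 and at 2.21, 1.81 and 1.64, and SLC10A3 stayed between 3.23 and 3.68 in all 6 libraries.

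Across both inductions, which have separate day 0 libraries, 27 members were higher in all 4 induced libraries, 26.7% against 19.4% of all tested genes. A further 9 were lower in all 4, 8.91% against 23.0%, among them SLC19A1, SLC29A1, SLC5A6 and SLC52A2. The pattern of higher with the SOX2 and lower with the TP63 hairpin held 19 members, 18.8% against 6.16%, among them SLC6A8, SLC31A2, SLC35F2, SLC37A4, SLC46A1 and 5 of the zinc and manganese carriers. At least 2-fold changes in both libraries of a line were seen for 5 members higher and 0 lower with the SOX2 hairpin (background 2.48% and 0.987%). They were SLC6A9, SLC48A1, SLC29A3, SLC35G1 and SLC22A17. With the TP63 hairpin SLC48A1 was at least 2-fold higher, and SLC19A1, SLC29A1 and SLC37A2 were lower (background 3.05% and 2.82%). In every pairing of the induced lines 10 members were at least 2-fold lower and 0 higher in the shTP63 line (background 1.59% and 0.873%): SLC29A1, SLC19A1, SLC39A14, SLC5A6, SLC46A1, SLC16A1, SLC22A17, SLC37A4, SLC4A11 and SLC39A6. Without induced shSOX2 number 2 or number 1, the count higher with the SOX2 hairpin was 10 and 13, where the background was 4.27% and 6.66%. A count from fewer libraries can only stay or rise.

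**Figure D4:**
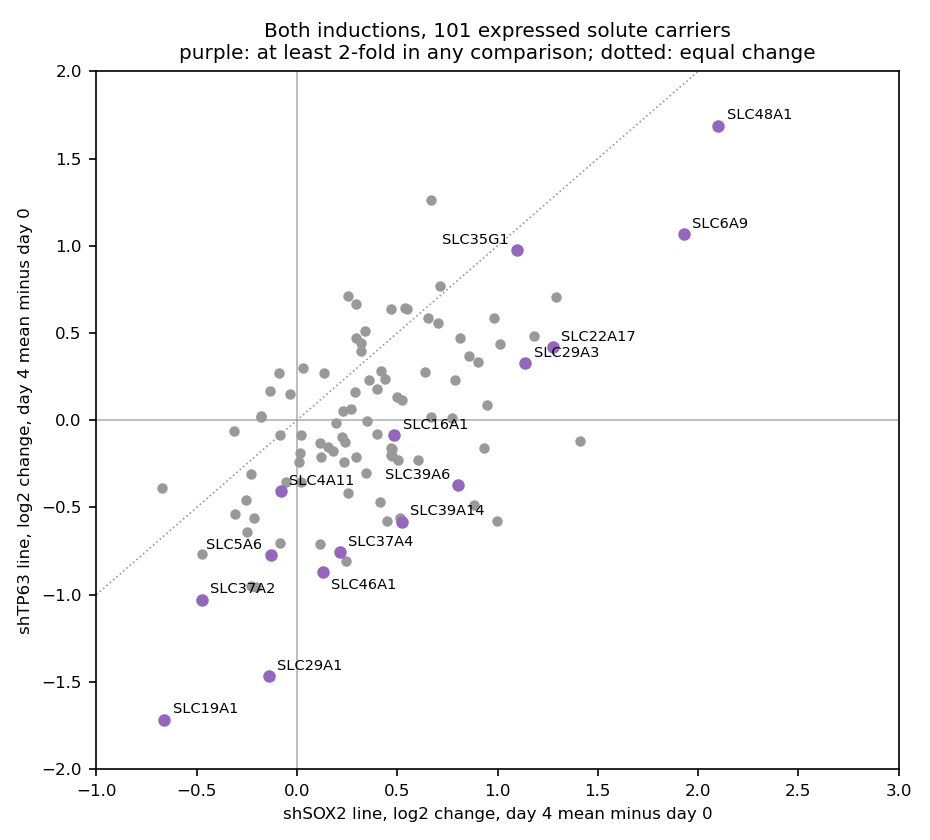
Log2 change of the 101 members after the SOX2 hairpin (x axis) and after the TP63 hairpin (y axis), each the day 4 mean minus day 0; purple points are members at least 2-fold apart in any comparison and the dotted line marks equal change. Most points lie below the dotted line, SLC48A1 and SLC6A9 are high on both axes, and SLC19A1 and SLC29A1 are lowest on the y axis.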

How the data were processed

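Poly(A) RNA of KYSE70 cells was sequenced in 6 libraries. The deposited table gives 1 value per gene and library, named RPKM. Its values fit log2(RPKM + 1), quantile normalized by the authors; both points are read from the values (0 to 13.36, with the same highest value in all 6), and base 2 is assumed. The build is hg19, per the submitters' processing notes, while the sources used here do not name an aligner, counter or annotation. Strand-specific counting is not stated, so overlapping genes may share reads. The linear value is 2 to the power of the deposited value, minus 1. The test took the 10536 genes whose linear RPKM averaged 1 or more. limma 3.58.1 in R 4.3.3 fitted 4 group means to the 6 libraries. The variance prior followed a trend with expression (2 residual and about 5.5 prior degrees of freedom). P-values are two-sided with Benjamini-Hochberg adjustment over all tested genes and a call under 0.05, errors after ± are limma standard errors, and each fold change is on the log2(RPKM + 1) scale, which understates changes of low genes. A line's only day 0 library is taken to be as variable as its day 4 pair. At least 2-fold means a log2 difference of at least 1 in every pairing of libraries. The script was tested on simulated data.

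Members, substrate groups and partner lists were chosen with earlier results of these data known. Names follow a rule: called members, the 8 per direction with the smallest p among those that moved the same way in every library, the most abundant member of each group, and the leading genes of partner lists. SLC39A14, SLC39A6 and the other members outside the rule were added after their values were seen. Values of some members and partner genes are not reported here. Start-site sequences are from RefSeq (GRCh38.p14).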

Additional observations from a re-analysis of the deposited data

Results flagged for a closer look

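In 19 members both induced libraries were above day 0 in the shSOX2 line and both were below it in the shTP63 line, and 10 of the 19 are named in the report. The difference of the responses, shTP63 minus shSOX2, was tested with limma over all genes and passed for none of the 19 (adjusted p = 0.995 for each). It was -1.58 ± 0.49 for the copper carrier SLC31A2, -1.37 ± 0.43 for SLC35F2 and -1.18 ± 0.44 for the zinc carrier SLC39A6, with unadjusted p of 0.0131, 0.0144 and 0.0305. SLC31A2 reached a mean RPKM of 1 only in the induced shSOX2 and the uninduced shTP63 group, where it was high. For the folate carrier SLC46A1 the difference of the responses was -1.0 ± 0.41, with an unadjusted p of 0.0434. The metal carrier SLC39A14 had -1.10 ± 0.64, the choline carrier SLC44A1 -1.09 ± 0.51 and the zinc carrier SLC39A3 -1.05 ± 0.46. SLC37A4 had -0.97 ± 0.43, the magnesium carrier SLC41A1 -0.88 ± 0.47 and the creatine carrier SLC6A8 -0.67 ± 0.50, and the other 9 members ranged from -1.07 to -0.31. The 19 were picked by the direction of these same changes, so each difference is below 0 by that choice. Their unadjusted p-values are tied to the choice as well. The day 0 side of each response is a single library.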

How the results depend on the processing

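The direction of the members' median held in every alternative for the SOX2 hairpin, the induced lines and the difference of responses, and for the TP63 hairpin it turned to 0.0164 with the replicate block. Counts moved more. With a pseudocount of 5, 2 members were at least 2-fold higher with the SOX2 hairpin, 0 higher and 0 lower with the TP63 hairpin and 2 lower between the induced lines. Between the induced lines limma then called 0 members, against 0.285% of all genes. Without a filter it called 0 members there as well, against 25 genes in all. At a mean RPKM of at least 5, which left 41 members, limma called 1 member between the induced lines and 44 genes in all. At that limit 3 members were at least 2-fold higher with the SOX2 hairpin, and 24 were higher and 6 lower in both its libraries. In both shTP63 libraries 14 were higher and 20 lower, and in every pairing of the induced lines 1 was higher and 32 lower. With both day 0 libraries as the control, 3 were at least 2-fold higher and 3 lower throughout with the SOX2 hairpin, and with the TP63 hairpin 20 were higher throughout and limma called 2 (1.98%, against 2.76% of all genes). That control, and more fully the day 0 library of the other line, brings in the day 0 gap between the lines. With the day 0 library of the other line, chosen after seeing the data, 14 were at least 2-fold higher with the SOX2 hairpin, and 10 were at least 2-fold lower with the TP63 hairpin, of which limma called 1 (0.99%, against 0.465% of all genes). Changes after the SOX2 hairpin turned to 0.176 for SLC12A2, 0.024 for SLC19A1, 0.259 for SLC20A1 and 0.361 for SLC52A2 with that control, and to 0.079 for SLC52A2 with both. The cause was not tested.

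Leaving out 1 induced library at a time gave, with the SOX2 hairpin, 5 to 13 members at least 2-fold higher and 10 to 31 lower in the remaining libraries. With the TP63 hairpin it gave 1 to 6 at least 2-fold higher and 3 to 7 lower. Between the induced lines it gave 12 to 17 at least 2-fold lower, 5 to 15 higher in every remaining pairing and 0 to 6 called, the lone library being assumed to vary like the others. In single induced libraries, number 2 and then number 1, 6.66% and 4.27% of all tested genes were at least 2-fold higher with the SOX2 hairpin. With the TP63 hairpin 6.03% and 6.25% were at least 2-fold higher and 6.23% and 5.27% lower. The replicate number as a block left 0 members called between the induced lines (0.0%, against 0.171% of all genes). The day 4 libraries of like number did not deviate together (r = -0.074 across 10536 genes, 2 pairs). With so few pairs this cannot tell whether libraries of like number shared a culture or batch. Whether day 0 and day 4 libraries of like number belong together within a line was not examined. Leaving out a day 0 library was not run, since each line has only that control. No read depth is known, so no limit of detection can be given.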
